A study of Arabidopsis thaliana with 6 samples.

Results

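FKBP-type peptidyl-prolyl isomerases were followed in root tips of Arabidopsis given one of a pair of signalling peptides, through the array probe sets that name a single gene of this family. The member list held 10 loci, and 9 of them had such a probe set, out of 13286 genes that the array named singly. The remaining one, AT4G25340 (FKBP53), was not analysed here. The family was picked on the difference between the peptides at one of its genes, AT3G55520, which lay among the genes with the smallest p in this same comparison. The other loci were then added as relatives, with their values on these arrays already known. All differences between the peptides at the members are therefore given as a description with standard errors and intervals, and no p-value is given for a member.

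Total RNA came from root tips of 5 mm, cut from 7-day-old wild-type seedlings of the accession Col-0 that had been shaken in liquid MS medium at 23 °C in constant light. One group was kept with synthetic CLE25 peptide and the other with synthetic CLE10 peptide, each at 1000 nM for 12 h, and each group holds 3 arrays (n = 3 for every mean and SD below). CLE peptides are short secreted signals that receptor kinases of the cell surface perceive, and the study asked which genes differ between these peptides. No array came from untreated roots, so each value sets one peptide against the other and shows no response to either of them. Whether the arrays of one peptide stand for separate cultures is not in the labels, and the spread between arrays may be technical.

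Peptidyl-prolyl isomerases speed up the turning of the peptide bond before a proline, a slow step in the folding and switching of proteins. FKBPs are the isomerases named for binding the drug FK506, and cyclophilins and parvulins are the other families with this activity. Plants have FKBPs in the cytosol and nucleus, some of them partners of the chaperone HSP90 or of histones, and many small ones in the thylakoid lumen of plastids. From such background, AT3G55520, AT5G48570, AT5G05420, AT3G12340 and AT4G25340 were taken as members outside plastids, and AT1G18170, AT2G43560, AT3G10060, AT3G60370 and AT4G19830 as plastid members.

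The signals are linear values of 1 probe set per gene and cannot be compared between genes. As deposited, their trimmed mean, with 2% cut at each end, was 500 on all 6 arrays. A difference is the mean of log2(signal + 6.03) with CLE25 minus that with CLE10, so that negative values mean a lower signal with CLE25. Probe sets with a mean log2 value under 6.62, near a signal of 92.3, were called dim and left out of the test over all probe sets. Of the 9 genes, 5 passed this filter and 4 were dim. AT1G18170 lay just inside it at 6.67, and AT2G43560 was the nearest outside at 6.19. With limma over the 13648 other probe sets, 0 had an adjusted p under 0.05 (0%), while 575 (4.21%) had an unadjusted p under 0.05, and the median difference of all tested probe sets was -0.0024. The number of arrays limits the precision.

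AT3G55520, an FKBP-like isomerase, had the largest difference among the 9 genes, with a mean signal in CLE25 root tips that was 0.618 times that in CLE10 root tips. Its signals were 967, 792 and 791 on the CLE25 arrays, and 1298, 1584 and 1243 on the CLE10 arrays. Every CLE25 array lay below every CLE10 array. The mean was 850.1 ± 102 (SD) with CLE25 and 1375 ± 183 with CLE10. The difference was -0.69 ± 0.13 (SE) on the log2 scale, with a 95% confidence interval from -0.97 to -0.41, or a signal ratio of 0.512 to 0.752. Of the 13648 probe sets tested, 27 were at least as low, itself included. These values chose the gene and support nothing by themselves. In whole root tips, fewer cells that hold a transcript and less of it per cell cannot be told apart.

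AT5G48570 is ROF2, also called FKBP65, a heat-induced FKBP of the cytosol and nucleus that is known to form complexes with HSP90 and to act in heat tolerance. It had signals of 412, 438 and 576 on the CLE25 arrays, and 548, 484 and 476 on the CLE10 arrays. The groups overlapped, because the third CLE25 array held the highest value of all 6. The means were 475 ± 88.1 (SD) with CLE25 and 503 ± 39.7 with CLE10, a log2 difference of -0.09 ± 0.14. The interval ran from -0.40 to 0.22, a ratio between 0.756 and 1.16. The value was -0.24 without CLE25 replicate 3 and 0.00 without CLE25 replicate 1.

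AT3G12340, an FKBP-like isomerase of the nucleus, was the only one of the 5 members past the filter with a higher mean after CLE25. Its signals were 371, 315 and 307 on the CLE25 arrays, and 275, 304 and 232 on the CLE10 arrays. The groups did not overlap, but the lowest CLE25 array and the highest CLE10 array were nearly equal. The mean was 331 ± 34.9 (SD) with CLE25 and 270.4 ± 36.0 with CLE10, which is 22.4% higher, and the log2 difference was 0.29 ± 0.15 with an interval from -0.03 to 0.61, and 0.19 without CLE10 replicate 3. AT3G12340 thus lay on the other side of 0 from AT3G55520, and the difference between these genes was not tested.

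AT5G05420, the remaining gene of this kind, was too dim to be read. Its signals were 3.49, 32.0 and 7.02 on the CLE25 arrays, and 7.83, 19.3 and 32.8 on the CLE10 arrays. The arrays of one group spread over several-fold, and the groups overlapped. The log2 difference of -0.51 ± 0.58 had an interval from -1.81 to 0.79, and it was -0.08 with a larger pseudocount, at the 40th percentile of all values. It ran from -1.10 without CLE25 replicate 2 to -0.10 without CLE25 replicate 1.

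**Figure D1:**
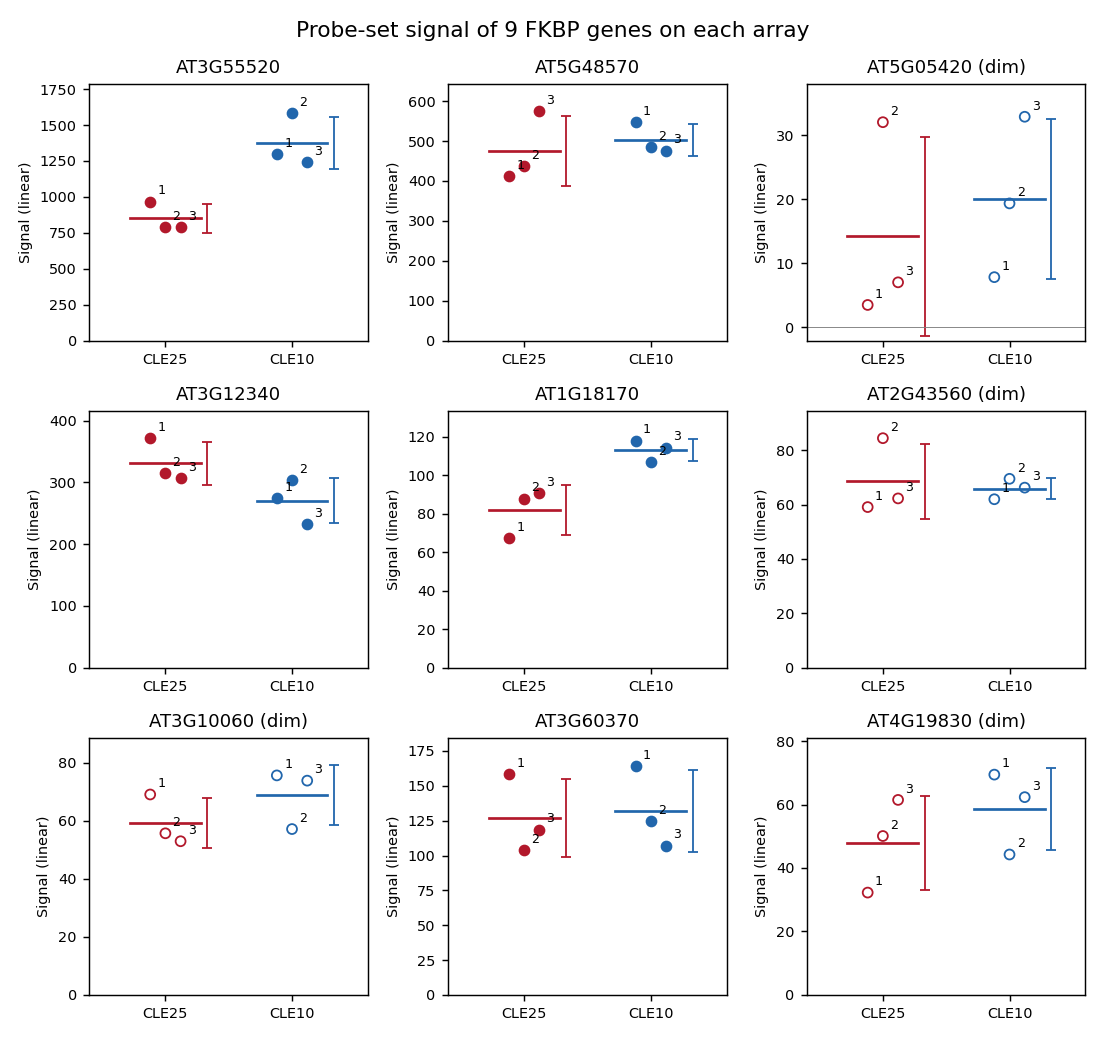
Each panel plots 1 gene, with its linear probe-set signal on the vertical axis and the peptide on the horizontal axis. Points are single arrays marked by replicate number (hollow where the gene was dim), lines are means and bars are SDs of 3 arrays. The groups stand apart in AT3G55520, AT3G12340 and AT1G18170 and overlap in the other 6 genes.

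Among the plastid members AT1G18170 stood apart between the groups. It had signals of 67.2, 87.8 and 90.8 on the CLE25 arrays, and 118, 107 and 114 on the CLE10 arrays. Every CLE25 array was below every CLE10 array, and the CLE10 arrays were close together, with a coefficient of variation of 5.11%. The mean was 81.9 ± 12.8 (SD) with CLE25 and 113 ± 5.77 with CLE10, a ratio of 0.726, and the log2 difference was -0.44 ± 0.20 with an interval from -0.88 to -0.01. Its mean with CLE25 was under the filter limit, so the gene passed only through its CLE10 arrays. In the fit without the filter, from which the dim members took their values, its SE was larger, at 0.23. The difference depended on the pseudocount and was -0.24 with one at the 40th percentile.

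AT3G60370, the other plastid member past the filter, had signals of 158, 104 and 119 on the CLE25 arrays, and 164, 125 and 107 on the CLE10 arrays. In both groups the first array was the highest, and the groups overlapped. The log2 difference was -0.06 ± 0.22, with an interval from -0.53 to 0.42. Its direction was not settled, since leaving out CLE10 replicate 1 gave 0.11, leaving out CLE25 replicate 2 gave 0.07, and leaving out CLE25 replicate 1 gave -0.22.

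The 3 dim plastid members overlapped between the groups. AT2G43560 had 59.1, 84.5 and 62.3 on the CLE25 arrays, and 62.0, 69.5 and 66.3 on the CLE10 arrays, a log2 difference of 0.04 ± 0.27. AT3G10060 had 69.0, 55.7 and 52.9 on the CLE25 arrays, and 75.6, 57.1 and 73.8 on the CLE10 arrays, a log2 difference of -0.20 ± 0.27. AT4G19830 had 32.2, 50.1 and 61.5 on the CLE25 arrays, and 69.4, 44.2 and 62.3 on the CLE10 arrays, a log2 difference of -0.28 ± 0.33. The interval of AT2G43560, the narrowest of the 3, covered ratios from 0.680 to 1.55. On leaving out an array AT2G43560 ran from -0.11 (without CLE25 replicate 2) to 0.13 (without CLE25 replicate 1). AT3G10060 ran from -0.32 (without CLE10 replicate 2) to -0.13 (without CLE25 replicate 3 or CLE10 replicate 1). AT4G19830 ran from -0.46 (without CLE25 replicate 3) to -0.05 (without CLE25 replicate 1).

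Green tissue could be read through 1 of the 14 genes listed for it, LHCB4.1, a light-harvesting protein. LHCB4.1 had signals of 129, 105 and 40.2 on the CLE25 arrays, and 123, 91.9 and 148 on the CLE10 arrays, a log2 difference of -0.49 ± 0.35. The third CLE25 array was far below the other 5, which overlapped. The part of green tissue in the values of the plastid members was not tested. Of the 15 markers listed for root tips, 5 had a probe set named here, and these were all past the filter, with differences from -0.25 to 0.24. They were the root hair expansins EXPA18 (0.13 ± 0.15) and EXPA7 (0.24 ± 0.20), the endodermal receptor kinase GSO1 (-0.03 ± 0.12), and the meristem transcription factors JKD (0.03 ± 0.28) and BBM (-0.25 ± 0.23).

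Over the 9 genes, 7 had a lower mean log2 value with CLE25 and 2 a higher one, and the median difference was -0.20. Over all 22746 probe sets without controls, 50.2% were lower with CLE25 and the median was -0.00093. AT3G55520 was chosen for being low, and without it 6 of 8 were lower, with a median of -0.14. Of these 6, AT5G48570, AT5G05420, AT3G10060, AT3G60370 and AT4G19830 had intervals that included 0 and groups that overlapped. The median of the 4 members outside plastids was -0.30 and that of the 5 plastid members was -0.20, with 3 and 4 genes lower. The first median includes the chosen AT3G55520 and AT5G05420, which was too dim to be read, so the 2 medians are not compared. Members past the filter ran from -0.69 to 0.29, with a median of -0.09. No direction common to the family can be read from these counts, because the members were chosen with their values known.

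**Figure D2:**
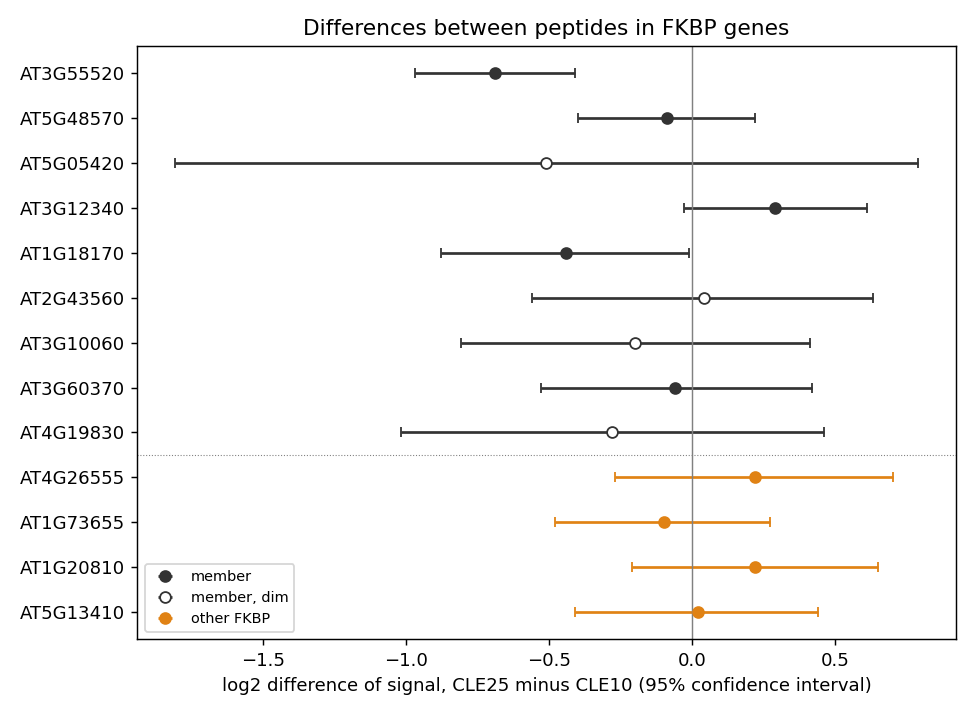
Points are log2 differences of signal, CLE25 minus CLE10, and bars are 95% confidence intervals from limma, with 3 arrays per group. The 9 members stand above the dotted line (hollow where dim) and 4 other FKBP genes below it. Dim members take their values from the fit without the filter, and the other genes from the fit with it. The intervals of AT3G55520 and AT1G18170 lie below 0, that of AT1G18170 only just and as given by the fit with the filter.

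The groups did not overlap in 3 of the 9 genes, where the share over all probe sets without controls was 9.06%. The 3 genes were among the 5 past the filter, where the share over all tested probe sets was 9.18%. In 2 of them, AT3G55520 and AT1G18170, all CLE25 arrays were below all CLE10 arrays, which 4.51% of tested probe sets showed. In AT3G12340 all CLE25 arrays were above, which 4.67% showed. AT3G55520 was chosen by the same contrast, and AT1G18170 passed the filter only through its CLE10 arrays, so nothing is read from these counts.

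**Figure D3:**
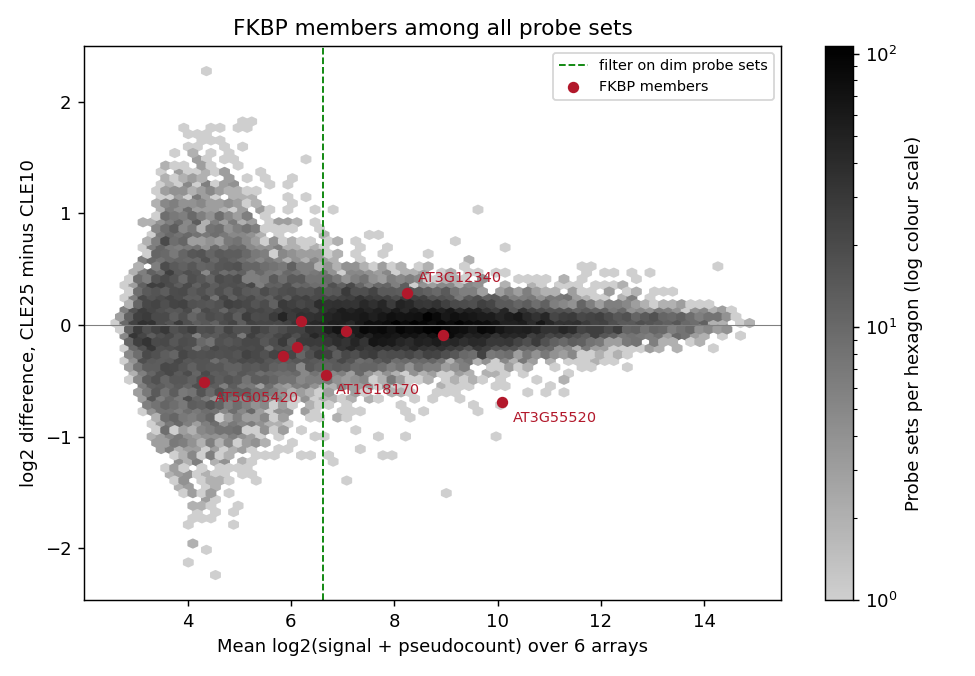
Grey hexagons count all 22746 probe sets by mean log2 value over 6 arrays (horizontal) and by log2 difference, CLE25 minus CLE10 (vertical), and red points are the 9 members. The dashed line is the filter on dim probe sets at 6.62; AT3G55520, at -0.69, lies at the lower edge of probe sets of like signal, and AT5G05420 lies in the wide scatter of dim ones.

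The spread between arrays of one peptide differed among the members. On the log2 scale the residual SD was 0.18 for AT3G55520, 0.17 for AT3G12340, 0.16 for AT1G18170 and 0.20 for ROF2 (AT5G48570), near the median of 0.16 over all tested probe sets. It was larger for AT3G60370, at 0.30. Among the dim genes it was 0.19 for AT2G43560, 0.20 for AT3G10060, 0.37 for AT4G19830 and 0.91 for AT5G05420. The median over all probe sets, those past the filter included, was 0.23. A median over dim probe sets alone was not taken.

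Other genes of the FKBP family could be followed through 4 of 12 listed loci, all of them past the filter. Their groups overlapped in each case, 3 had a higher and 1 a lower mean with CLE25, the median difference was 0.12, and 0 passed in limma over all probe sets. AT4G26555 differed by 0.22 ± 0.22, AT1G20810 by 0.22 ± 0.20, AT5G13410 by 0.02 ± 0.19 and AT1G73655 by -0.10 ± 0.17. AT1G20810 came nearest to separate groups, with 112, 98.3 and 110 on the CLE25 arrays, and 98.9, 77.3 and 96.5 on the CLE10 arrays. The intervals of all 4 included 0.

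Cyclophilins and parvulins share the isomerase activity but not the fold. Of 28 listed loci of these families, 17 were measured, all of them cyclophilins, so parvulins were not read here. Of the 15 past the filter, 8 were higher and 7 lower with CLE25, 0 passed in limma over all probe sets, and the median was 0.03. The 4 with the highest signal differed by -0.05 ± 0.11 (AT2G47320), 0.07 ± 0.10 (AT2G36130), 0.13 ± 0.11 (AT1G01940) and -0.12 ± 0.11 (AT4G34960). The groups stood apart in 1 of the 15, SQN, the cyclophilin 40 that binds HSP90, and in 1 of the 2 dim ones, AT1G74070, where the share was 9.18% over tested and 9.06% over all probe sets. Both are named because their groups did not overlap. SQN had 279, 349 and 338 on the CLE25 arrays, and 259, 250.0 and 276 on the CLE10 arrays, a log2 difference of 0.29 ± 0.14. A second SQN probe set was far dimmer, at 2.57, 3.77 and 3.01 on the CLE25 arrays, and 1.08, 1.24 and 1.12 on the CLE10 arrays. Its groups did not overlap and lay in the same direction, at signals under the pseudocount. AT1G74070 had 9.73, 18.3 and 8.57 on the CLE25 arrays, and 46.5, 34.6 and 28.2 on the CLE10 arrays. Its log2 difference was -1.24 ± 0.38, with an interval from -2.08 to -0.39. At such dim signals the size of a log2 difference depends on the pseudocount.

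Partners of FKBPs were read through few of their genes. In the list of HSP90, HSP70 and co-chaperone genes, 7 of 21 loci were measured and tested, and no HSP90 gene was among them. Of these 7, 5 were higher and 2 lower with CLE25. Their differences ran from -0.07 to 0.14, with a median of 0.07 and 0 past the threshold. The 4 with the highest signal were AT3G09440, of the HSP70 family, at -0.07 ± 0.11, the p23-like AT4G02450 at 0.05 ± 0.09, and the HSP70 and HSP90 organising proteins Hop2 and Hop1 at 0.14 ± 0.12 and 0.13 ± 0.11. Heat shock factors and small heat shock proteins had 1 measured gene of 9, the dim small heat shock protein ATHSP22.0, at -0.08 ± 0.35. No heat shock factor was measured. The intervals of these 8 genes included 0. The widest ones reached ratios of 0.614 to 1.53 for the co-chaperone SGT1A and 0.546 to 1.63 for ATHSP22.0, so sizeable differences in either direction lay inside them.

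Histone chaperones and nucleolar proteins, of interest because FKBPs of the nucleus can bind histones, had 2 measured genes of 20. The H3-H4 chaperone genes SGA2 (ASF1A) and ASF1B differed by 0.23 ± 0.13 and 0.12 ± 0.13. SGA2 had 388, 387 and 437 on the CLE25 arrays, and 361, 297 and 380 on the CLE10 arrays, so its groups did not overlap, though by a small margin, as in 9.18% of tested probe sets. Of the pathway of TOR, the kinase that FKBP12 inhibits together with rapamycin in yeast and animals, 2 of 8 loci were measured. RAPTOR1, a subunit of the TOR complex, differed by 0.01 ± 0.15, and RAPTOR2 was dim. In the lists from other FKBPs to TOR, 0 tested genes passed in limma over all probe sets.

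**Figure D4:**
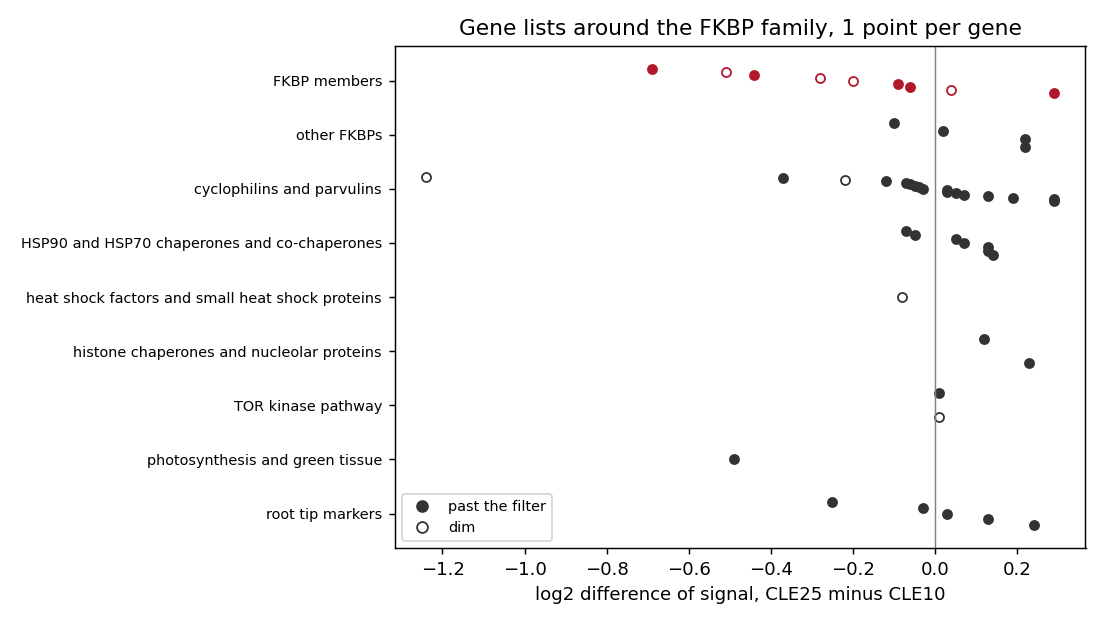
Each point is 1 gene, placed by its log2 difference of signal, CLE25 minus CLE10, with 1 row per gene list and hollow points for dim genes. Most points lie within 0.3 of 0; AT3G55520 at -0.69 is the lowest gene past the filter in any row, and the dim AT1G74070 lies furthest to the left.

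The tested genes with single names whose log2 values followed AT3G55520 most closely over the 6 arrays were AT4G24050, TSC10B, AT5G07340, AT2G47250 and AT4G34310. Pearson's r with AT3G55520 was 0.985 for AT4G24050 and for TSC10B, a reductase of sphingolipid synthesis, 0.979 for AT5G07340, 0.972 for AT2G47250 and 0.970 for AT4G34310. All 5 were lower with CLE25, as the likeness demands, with log2 differences from -0.47 to -0.14. AT2G47250, for one, had 677, 514 and 537 on the CLE25 arrays, and 769, 883 and 709 on the CLE10 arrays. With only 6 arrays that share their peptides, 82 of the tested probe sets reached an r of 0.9 and 78 reached -0.9, so the likeness is a description of these arrays.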

How the data were processed

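RNA was measured on 6 Affymetrix arrays, and the deposited file holds intensity values, with 1 linear signal for each probe set on each array. GCOS 1.4 is named in the submitters' processing notes; its settings and the genome build are not stated by the labels, and detection calls were not used here. The trimmed mean was equal on all arrays, so the values were used as deposited. Scaling to an equal trimmed mean would hide a shift of all transcripts.

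Names came from the platform's annotation, matched by gene identifier to the TAIR10.1 gene table, used for names only. Of 22810 probe sets, 64 were controls, 13513 named 1 gene, 503 several, and 8730 had no name here; only the first kind was named. No member had more than 1 probe set. Sequences were not used here.

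Values were taken as log2(signal + 6.03), the pseudocount being the 10th percentile. Probe sets under the 40th percentile of the mean over all arrays were left out. limma 3.58.1 in R 4.3.3 was fitted with lmFit and eBayes with a variance trend to the 13648 others, with Benjamini-Hochberg adjusted p-values. Dim members took their values from the same fit without the filter. In a test on simulated data for this comparison, 200 of 13648 probe sets were changed, with variances drawn from the fitted limma model. At an adjusted p under 0.05, 40.9% of those changed 1.5-fold and 87% of those changed 2-fold were recovered. Of the calls, 4.94% were false. These shares describe data that follow the model and may differ for the arrays themselves.

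The members and lists were chosen with earlier results of these data known. All 10 loci were to be named, all tested genes of the other FKBPs, the 4 brightest tested genes of each other list, and the 5 genes most like AT3G55520. Alternatives were other pseudocounts, filters, normalization and variance models, array weights, a replicate block and leaving out each array. Same-numbered arrays had deviations from their group means that correlated at 0.0761, 0.136 and 0.221 across tested probe sets. Arrays of the 2 groups with different numbers correlated less, from -0.162 to 0.0202. As the meaning of the numbers is not in the labels, they did not pair the arrays.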

Additional observations from a re-analysis of the deposited data

How the results depend on the processing

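No probe set was called in limma under the pseudocount, filter, normalization, trend and weight alternatives, nor on leaving out an array (0 to 0); with a replicate block 1 was called, no member, and the count at an unadjusted p under 0.05 was 814. That count, 575 here, was 980 of 22746 with no filter, 362 of 9099 with the filter at the 60th percentile, 360 without CLE10 replicate 1 and 886 without CLE25 replicate 2. The median of the tested members, -0.09, ran from -0.24 to -0.03 on leaving out an array, was -0.22 without CLE25 replicate 1 and -0.24 without CLE25 replicate 3, and was -0.20 with no filter, which adds the 4 dim members. AT3G55520 ran from -0.78 (without CLE25 replicate 1) to -0.58 (without CLE10 replicate 2), was -0.69 with the replicate block, and kept its sign, which its separate groups fix. AT3G12340 ran from 0.19 to 0.38 and AT1G18170 from -0.52 to -0.32. AT1G18170 fell under the filter without CLE10 replicate 3. With the filter at the 60th percentile, AT1G18170 and AT3G60370 both fell under it, and 3 members stayed. The sign changed on leaving out an array for AT2G43560 (-0.11 to 0.13), AT3G60370 (-0.22 to 0.11) and ROF2 (-0.24 to 0, just above 0 before rounding). The causes were not tested. Dim signals limit AT5G05420, AT2G43560, AT3G10060 and AT4G19830.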
